A study of Homo sapiens with 9 samples.

Results

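Genes of bile acid synthesis and of its control by the nuclear receptor FXR were followed in HepG2, a cell line grown from a human liver cancer that keeps many hepatocyte genes active, after CRISPR/Cas9 targeting of KEAP1. The genes were CYP7A1, HSD3B7, CYP27A1, AMACR, BAAT and ABCB11 for synthesis and export, and NR1H4, NR0B2, FGF19 and FGFR4 for control. They were chosen by pathway from earlier work on these same counts, in which the low CYP7A1 level with both KEAP1 guides was already known, so that every difference of these 10 genes from the control is given as a description. Of the 10 genes, 8 had a row among the 11746 features with an Entrez gene number. FGF19 and ABCB11 had no row and were not analysed here. Of the 8, 7 had enough reads to be tested, and BAAT did not. CYP7A1, AMACR and BAAT are marked as genes with few counts, under 10 counts per library on average.

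The liver makes bile acids from cholesterol. In the classic pathway CYP7A1 hydroxylates cholesterol at its ring and sets the pace, whereas the alternative pathway starts on the side chain with CYP27A1. HSD3B7 then modifies the ring, AMACR turns the side chain into the form that peroxisomes can shorten, BAAT joins the acid to glycine or taurine, and ABCB11, the bile salt export pump, carries the product into bile. Bile acids bind FXR, which is encoded by NR1H4. In liver cells FXR raises SHP, encoded by NR0B2, a repressor of CYP7A1 transcription, and in the gut it raises the hormone FGF19, which signals to the liver through the receptor FGFR4 and its partner KLB. KEAP1 itself is the adaptor that marks the transcription factor NRF2 for degradation.

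There were 3 groups with 3 libraries each, numbered 1 to 3, and the labels name no siRNA for any of them. The control cells (sgCtrl) carried Cas9 and a guide against AAVS1, a locus inside PPP1R12C, and are given as sgAAVS168 in the labels. The other groups carried Cas9 and either of 2 guides against KEAP1, sgKEAP1-1 and sgKEAP1-2 (sgKeap1-1 and sgKeap1-2 in the labels). All cells, the controls included, had been transduced with a lentiviral vector that expresses Cas9 and selected with puromycin, and RNA was taken 48 h after seeding. No source used here says whether the lines are pools or clones, or whether the 3 libraries of a group came from separate cultures, so the p-values measure only the spread between these libraries. The guide sequences define the perturbation and are shown 5′ to 3′ in lower case, with the adjoining PAM, the motif that Cas9 needs beside its target, in capitals. Each matched chromosome 19 of GRCh37 exactly at 1 site.
sgKEAP1-1: acaaccccatgaccaatcagTGG
sgKEAP1-2: ttggcatcatgaacgagctgCGG
sgCtrl (AAVS1): ccagccgtagaggtgacccAGG
The sgKEAP1-1 target lies at chr19:10602372-10602391 in exon 3 of KEAP1, and the sgKEAP1-2 target at chr19:10610500-10610519 in exon 2, both on the minus strand. The sgCtrl target lies at chr19:55627855-55627873 on the plus strand, in intron 1 of PPP1R12C.

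The libraries were made with a kit that reads the end of each polyadenylated transcript, so the counts were not divided by transcript length and levels are not compared between genes. Counts assigned to numbered genes came to 3011644 to 4725840 per library, with a median of 3758185. Levels are given as normalised CPM, counts scaled to a common library size by edgeR's TMM method, and a gene is called where the adjusted p of edgeR's quasi-likelihood test over 11064 features is under 0.05. KEAP1 mRNA was at 63.3, 89.2 and 85.3 normalised CPM in sgCtrl, at 64.1, 62.5 and 53.4 with sgKEAP1-1, and at 81.9, 85.6 and 73.9 with sgKEAP1-2. Its log2 fold change was -0.40 with sgKEAP1-1 (edgeR adjusted p = 0.211) and 0.02 with sgKEAP1-2 (edgeR adjusted p = 0.952), and reads from the transcript end cannot show the edit itself. Of 7 tested NRF2 target genes, 5 rose with sgKEAP1-1 and 6 with sgKEAP1-2, beside 2.80% and 5.96% of all features called higher. The summed level of the NRF2 target genes went from 816.8 to 923.2 normalised CPM in sgCtrl to 2094 to 2518 and to 2442 to 3186. Of 10 hepatocyte markers 9 had a row, CYP3A4 being the exception, and their summed level was 28809 to 36568 normalised CPM in sgCtrl, 16553 to 20970 with sgKEAP1-1 and 13646 to 15273 with sgKEAP1-2. ALB, AFP, APOA1 and TF fell and TTR rose with each guide.

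CYP7A1 (Entrez gene 1581; GRCh37 chr8:59402737-59412722, minus strand), the rate-limiting enzyme of the classic pathway, was the member with the largest difference. It was at 6.89, 4.42 and 8.92 normalised CPM in sgCtrl libraries 1 to 3, at 0.244, 0.871 and 0.526 with sgKEAP1-1, and at 1.23, 0.488 and 0.242 with sgKEAP1-2. All 6 KEAP1 KO libraries lay under all 3 control libraries. The read counts behind these levels were 26, 13 and 32 in sgCtrl, 1, 4 and 2 with sgKEAP1-1, and 4, 2 and 1 with sgKEAP1-2. The summed counts of each guide were thus 7 against 71 in sgCtrl. Scaled by library size, the sgCtrl level was 12.3 times that of sgKEAP1-1 (95% exact interval 5.67 to 31.7) and 11.3 times that of sgKEAP1-2 (5.21 to 29.1), intervals that cover counting error only. The fitted log2 fold change was -3.53 with sgKEAP1-1 (SE 0.57) and -3.40 with sgKEAP1-2 (SE 0.57), given with no p because the gene was picked for this difference. CYP7A1 passed the filter on low counts through its sgCtrl libraries alone, and with a minimum of 10 counts in every library it could not be tested. Of the 9 measured hepatocyte markers, 4 were called lower beside it with each guide (ALB, AFP, APOA1 and TF), 1 was called higher (TTR, 0.63 and 0.65 on the log2 scale) and 4 were not called (APOB at -0.06 and 0.03, TAT at 0.14 and 0.33, SERPINA1 at -0.15 and -0.28, CPS1 at -0.36 and -0.64). Of all tested features, 1.40% were called lower and 2.80% higher with sgKEAP1-1, and 4.85% lower and 5.96% higher with sgKEAP1-2. ALB had log2 fold changes of -1.10 with sgKEAP1-1 and -1.66 with sgKEAP1-2 (edgeR adjusted p = 0.0027 and 5.08e-05). The part of the markers in the CYP7A1 difference was not tested. In bulk RNA, fewer cells that express a gene cannot be told apart from less of its RNA per cell.

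**Figure D1:**
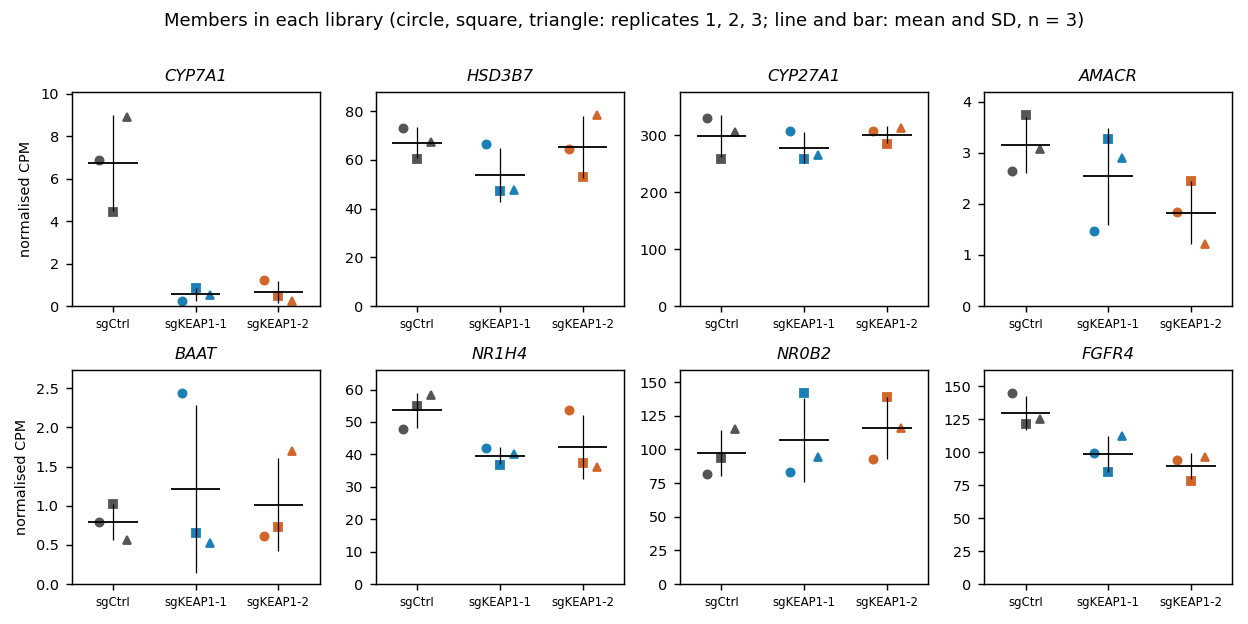
Normalised CPM (vertical axes, linear, from 0) of the 8 members with a row, by group on the horizontal axis, with a symbol per library and the mean and SD of 3 libraries as line and bar. CYP7A1 lies at 4.42 to 8.92 in sgCtrl and at 0.242 to 1.23 in the 6 KEAP1 KO libraries, whereas CYP27A1 spans 258 to 331 over all 9 libraries.

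The other enzymes of synthesis lay nearer to their control levels. HSD3B7 (Entrez gene 80270; GRCh37 chr16:30996528-31000468), the ring-modifying dehydrogenase of both pathways, was at 73.1, 60.6 and 67.5 normalised CPM in sgCtrl, at 66.7, 47.1 and 47.6 with sgKEAP1-1, and at 64.3, 53.2 and 78.5 with sgKEAP1-2. The groups overlapped. The HSD3B7 log2 fold change was -0.32 with sgKEAP1-1 (SE 0.18, edgeR adjusted p = 0.458) and -0.04 with sgKEAP1-2 (SE 0.18, edgeR adjusted p = 0.93). CYP27A1 (Entrez gene 1593; GRCh37 chr2:219646472-219680016), the mitochondrial sterol 27-hydroxylase that opens the alternative pathway, was read most deeply of the members, with 1114 counts per library on average. Its levels were 331, 259 and 306 normalised CPM in sgCtrl, 308, 258 and 266 with sgKEAP1-1, and 307, 285 and 313 with sgKEAP1-2. Its log2 fold change was -0.11 with sgKEAP1-1 (SE 0.13, edgeR adjusted p = 0.79) and 0.01 with sgKEAP1-2 (SE 0.13, edgeR adjusted p = 0.969), and the sign of the latter turned when sgCtrl replicate 2 was left out (-0.08). The spread between CYP27A1 replicates was small, with a coefficient of variation of 12.2%, 9.65% and 4.9% in the 3 groups.

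AMACR (Entrez gene 23600; GRCh37 chr5:33986270-34008209) and BAAT (Entrez gene 570; GRCh37 chr9:104116464-104147682) had few counts. AMACR, the racemase of the side chain, had 10, 11 and 11 counts in sgCtrl, 6, 15 and 11 with sgKEAP1-1, and 6, 10 and 5 with sgKEAP1-2. Its sgKEAP1-2 libraries (1.85, 2.44 and 1.21 normalised CPM) all lay under its sgCtrl libraries (2.65, 3.74 and 3.07), whereas those of sgKEAP1-1 overlapped with them. The AMACR log2 fold change was -0.29 with sgKEAP1-1 (SE 0.45, edgeR adjusted p = 0.859) and -0.76 with sgKEAP1-2 (SE 0.48, edgeR adjusted p = 0.377). AMACR was thus called with neither guide, and both values have a wide error. BAAT, the amino acid conjugating enzyme, had 3, 3 and 2 counts in sgCtrl, 10, 3 and 2 with sgKEAP1-1, and 2, 3 and 7 with sgKEAP1-2. The 10 counts of sgKEAP1-1 replicate 1 were the highest BAAT count. BAAT failed the filter on low counts. Without a filter its log2 fold change was 0.60 with sgKEAP1-1 (SE 0.80, edgeR adjusted p = 0.822) and 0.40 with sgKEAP1-2 (SE 0.83, edgeR adjusted p = 0.838).

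Among the control genes, the levels of the FGF19 receptor and of FXR lay mostly under those of sgCtrl, and those of SHP overlapped with them. FGFR4 (Entrez gene 2264; GRCh37 chr5:176513906-176525145), the receptor tyrosine kinase for FGF19, was at 145, 121 and 125 normalised CPM in sgCtrl, at 99.4, 84.7 and 112 with sgKEAP1-1, and at 94.2, 78 and 96.7 with sgKEAP1-2. All 6 KEAP1 KO libraries lay under all 3 control libraries. Its log2 fold change was -0.54 with sgKEAP1-2 (SE 0.14, edgeR adjusted p = 0.0267) and -0.40 with sgKEAP1-1 (SE 0.14, edgeR adjusted p = 0.166). Under a replicate block the sgKEAP1-1 value was -0.41 (edgeR adjusted p = 0.0363). The sgKEAP1-2 call was lost without sgCtrl replicate 1 (edgeR adjusted p = 0.128), without sgCtrl replicate 3 (0.064), without sgKEAP1-2 replicate 1 (0.0601) and without sgKEAP1-2 replicate 2 (0.119), with log2 fold changes of -0.44 to -0.58. 

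NR1H4 (Entrez gene 9971; GRCh37 chr12:100867486-100958192), which encodes FXR, was at 47.7, 54.8 and 58.3 normalised CPM in sgCtrl and at 41.9, 36.8 and 40 with sgKEAP1-1, which do not overlap. With sgKEAP1-2, NR1H4 was at 53.6, 37.3 and 36.1, where replicate 1 lay within the control range. The NR1H4 log2 fold change was -0.44 with sgKEAP1-1 (SE 0.17, edgeR adjusted p = 0.228) and -0.35 with sgKEAP1-2 (SE 0.17, edgeR adjusted p = 0.252). NR0B2 (Entrez gene 8431; GRCh37 chr1:27237980-27240466), which encodes SHP, was at 81.9, 93.9 and 115 normalised CPM in sgCtrl, at 83.5, 142 and 94.4 with sgKEAP1-1, and at 93, 139 and 116 with sgKEAP1-2. The groups overlapped, and replicate 2 was the highest library with each KEAP1 guide. The NR0B2 log2 fold change was 0.14 with sgKEAP1-1 (SE 0.21, edgeR adjusted p = 0.857) and 0.26 with sgKEAP1-2 (SE 0.21, edgeR adjusted p = 0.522), and without sgKEAP1-1 replicate 2 the former was -0.13.

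**Figure D2:**
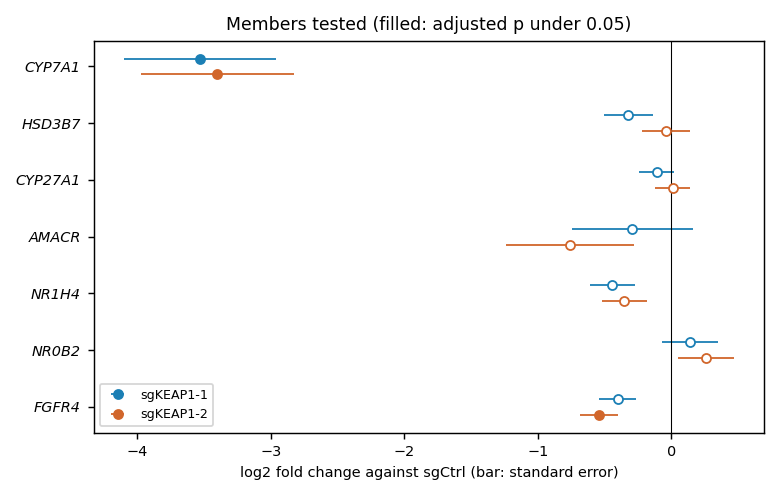
Log2 fold change against sgCtrl (horizontal axis, bars are the standard error) of the 7 tested members, with sgKEAP1-1 in blue and sgKEAP1-2 in orange, filled where the adjusted p is under 0.05. CYP7A1 lies at -3.53 and -3.40, and the other 6 genes lie between -0.76 and 0.26. The fill of CYP7A1 is not read as a test, because the gene was picked for this difference.

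Counted together, 1 of the 7 tested members (CYP7A1) was called with sgKEAP1-1, beside 4.20% of all tested features (2.80% higher and 1.40% lower). With the replicate block there were 2 of 7, FGFR4 being added, beside 8.83% of all features. With sgKEAP1-2 it was 2 of 7 (CYP7A1 and FGFR4), beside 10.8% of all features (5.96% higher and 4.85% lower). Between the groups there was no overlap for CYP7A1, FGFR4 and NR1H4 with sgKEAP1-1, beside 21.7% of all features, and for CYP7A1, FGFR4 and AMACR with sgKEAP1-2, beside 28.0%. Nothing is read from these counts, because the members were picked with results of these contrasts known, and both contrasts use the same 3 sgCtrl libraries. CYP7A1 was picked for this very difference and passed the filter through sgCtrl alone, so its place among the called genes is no test.

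The guides were also compared with each other, in the fit of all 3 groups, so that the sgCtrl libraries enter the filter and the estimate of the spread. Of all features 0.0181% (2 of 11064) were called, a count that was 0 in limma-voom, 0 in a fit of the 2 KEAP1 groups alone, 0 without any of the 3 sgCtrl libraries, 19 in DESeq2 and 26 with a replicate block. None of the 7 members was called by edgeR, limma-voom or DESeq2, with 0 of 7 at an unadjusted p under 0.05 as well. In the fit of the 2 KEAP1 groups alone, 5 members could be tested, without CYP7A1 and AMACR. The log2 difference of sgKEAP1-2 over sgKEAP1-1 was 0.14 for CYP7A1 (SE 0.82, edgeR adjusted p = 0.994), where the few counts leave a wide error. It was more closely bounded for CYP27A1 at 0.12 (SE 0.13), for FGFR4 at -0.14 (SE 0.14), for NR1H4 at 0.09 (SE 0.17), for HSD3B7 at 0.28 (SE 0.18) and for NR0B2 at 0.12 (SE 0.21), each with an edgeR adjusted p of 0.986 or 0.987. AMACR differed by -0.47 (SE 0.48, edgeR adjusted p = 0.986). These tests do not show that the guides act alike.

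The members were set beside 62 further genes of the same pathways, of which 50 had a row and 48 were tested. With sgKEAP1-1, 8 of the 48 were called, 4 higher and 4 lower, beside 4.20% of all tested features. With sgKEAP1-2, 12 of the 48 were called, 4 higher and 8 lower, beside 10.8% of all tested features. With the replicate block 13 were called with sgKEAP1-1, beside 8.83% of all features, POR, ABCB4, HNF4A, SLC51B and MAFG being added. The block gave 19 with sgKEAP1-2, beside 1956 of 11064 features, and for that guide the pairing by number did not hold in all pairs. Among the blocked calls, SLC51B passed the filter on low counts through its KEAP1 KO libraries alone, and FETUB through sgCtrl alone. Neither of these calls is a test. The lists were drawn up with earlier results of these counts known. Between the guides 0 of 48 were called by edgeR, limma-voom or DESeq2, and 4 had an unadjusted p under 0.05 in edgeR. In the list of the classic pathway and ring enzymes, CYP8B1, the sterol 12-hydroxylase, was at 7.15, 8.51 and 6.69 normalised CPM in sgCtrl, at 3.41, 6.54 and 5.26 with sgKEAP1-1, and at 6.46, 3.9 and 4.12 with sgKEAP1-2. All 6 KEAP1 KO libraries lay under the controls, at log2 fold changes of -0.54 (SE 0.33, edgeR adjusted p = 0.505) and -0.64 (SE 0.34, edgeR adjusted p = 0.283). AKR1D1, the bile acid 5-beta-reductase, had log2 fold changes of -0.43 (SE 0.28, edgeR adjusted p = 0.538) and -0.82 (SE 0.29, edgeR adjusted p = 0.0911), the latter passing the threshold without sgCtrl replicate 2 (-1.01, edgeR adjusted p = 0.0481) or sgKEAP1-2 replicate 3 (-1.13, edgeR adjusted p = 0.021). It also passed under the replicate block (-0.83, edgeR adjusted p = 0.00916). With all libraries and no block, CYP8B1, AKR1D1 and HSD3B7 were 3 genes of 4 in the list that were not called with either guide. The list median was -0.48 with sgKEAP1-1 and -0.73 with sgKEAP1-2, beside -0.00 and -0.01 over all tested features.

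Of the other alternative pathway enzymes, CYP7B1, CYP39A1, CYP46A1 and CH25H had no row, so that CYP27A1 stood alone. Of the proteins that pass electrons to these cytochromes, POR, the reductase that serves CYP7A1 and other microsomal enzymes, fell with sgKEAP1-2. POR was at 235, 274 and 226 normalised CPM in sgCtrl, at 190, 191 and 179 with sgKEAP1-1, and at 153, 178 and 169 with sgKEAP1-2. The groups did not overlap, with log2 fold changes of -0.39 (SE 0.12, edgeR adjusted p = 0.0945, and 0.0251 with the replicate block) and -0.56 (SE 0.12, edgeR adjusted p = 0.00797). FDX1 and FDXR, which serve the mitochondrial CYP27A1, overlapped between groups, with log2 fold changes of 0.07 to 0.35. Among the 7 side chain enzymes no gene was called with either guide, beside 4.20% and 10.8% of all tested features. The changes lay between -0.29 and 0.10 with sgKEAP1-1 and between -0.76 and -0.01 with sgKEAP1-2, with AMACR the lowest in each case and ACOX2 and ACOT8 the highest. Under the replicate block SCP2, another of these enzymes, was called lower with sgKEAP1-2 (-0.45, edgeR adjusted p = 0.0427).

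In the FGF19 signalling list, KLB, the co-receptor that lets FGFR4 bind FGF19, fell with both guides. KLB was at 248, 158 and 171 normalised CPM in sgCtrl, at 106, 105 and 105 with sgKEAP1-1, and at 114, 128 and 98.1 with sgKEAP1-2. All 6 KEAP1 KO libraries lay under the controls. Its log2 fold change was -0.87 (SE 0.17, edgeR adjusted p = 0.00626) with sgKEAP1-1 and -0.76 (SE 0.17, edgeR adjusted p = 0.00803) with sgKEAP1-2. The adaptors downstream of the receptor were not called. FRS2 had log2 fold changes of -0.32 and -0.63, GRB2 of -0.17 and -0.08, and PTPN11 of -0.00 and 0.11 (edgeR adjusted p from 0.173 to 0.998). The median of the 5 tested genes, FGFR4 included, was -0.32 with sgKEAP1-1 and -0.54 with sgKEAP1-2.

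Of the 15 tested nuclear receptors and cofactors, RXRA was called with both guides and HNF4A with sgKEAP1-2, beside 4.20% and 10.8% of all tested features. With all libraries and no replicate block, no gene of the list was called higher, beside 2.80% and 5.96%. Nothing is read from these counts. RXRA, the partner with which FXR binds DNA, was at 138, 109 and 136 normalised CPM in sgCtrl, at 90.9, 84.1 and 83.1 with sgKEAP1-1, and at 89.3, 90.2 and 95.9 with sgKEAP1-2. All 6 KEAP1 KO libraries lay under the controls and the guides overlapped with each other, with log2 fold changes of -0.57 (SE 0.13, edgeR adjusted p = 0.0197) and -0.48 (SE 0.13, edgeR adjusted p = 0.0285). HNF4A, a hepatocyte transcription factor that drives CYP7A1, was at 267, 216 and 249 normalised CPM in sgCtrl, at 183, 160 and 202 with sgKEAP1-1, and at 172, 150 and 173 with sgKEAP1-2. Neither guide overlapped with sgCtrl, whereas the guides overlapped with each other. Its log2 fold change was -0.43 (SE 0.13, edgeR adjusted p = 0.0945, and 0.0121 with the replicate block) with sgKEAP1-1 and -0.56 (SE 0.13, edgeR adjusted p = 0.0126) with sgKEAP1-2. Both genes depended on single libraries: without sgCtrl replicate 1 the edgeR adjusted p was 0.114 and 0.126 for RXRA and 0.0706 for HNF4A with sgKEAP1-2, and without sgCtrl replicate 3 it was 0.109, 0.12 and 0.0535. RXRA was also lost without any of the 3 sgKEAP1-1 libraries (edgeR adjusted p from 0.0584 to 0.0771) or without sgKEAP1-2 replicate 1 or 2 (0.0971 and 0.0926), and HNF4A without sgKEAP1-2 replicate 2 (0.0608). The list median was -0.03 with sgKEAP1-1 and -0.05 with sgKEAP1-2, near that of all features. NR1I2, the pregnane X receptor, was the gene with the highest value in this list (0.82 and 0.83, SE 0.36, edgeR adjusted p = 0.298 and 0.182), and without sgKEAP1-2 replicate 3 it was called with sgKEAP1-2 (edgeR adjusted p = 0.0234). MAFG, a small MAF protein that partners NRF2, was at 86.4, 157 and 99 normalised CPM in sgCtrl, at 113, 224 and 138 with sgKEAP1-1, and at 145, 217 and 112 with sgKEAP1-2. Each KEAP1 KO library lay over the sgCtrl library of the same number. The MAFG log2 fold change was 0.48 (SE 0.33, edgeR adjusted p = 0.592) and 0.47 (SE 0.33, edgeR adjusted p = 0.453). In the fit with the replicate block it was 0.46 with sgKEAP1-1 (SE 0.13, edgeR adjusted p = 0.0256) and 0.47 with sgKEAP1-2 (SE 0.13, edgeR adjusted p = 0.0138). The pairing by number, on which the block and the same-number comparison rest, is less sure for sgKEAP1-2. NR1I3, RXRB and NR5A2 had no row, and VDR had too few counts to be tested.

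**Figure D3:**
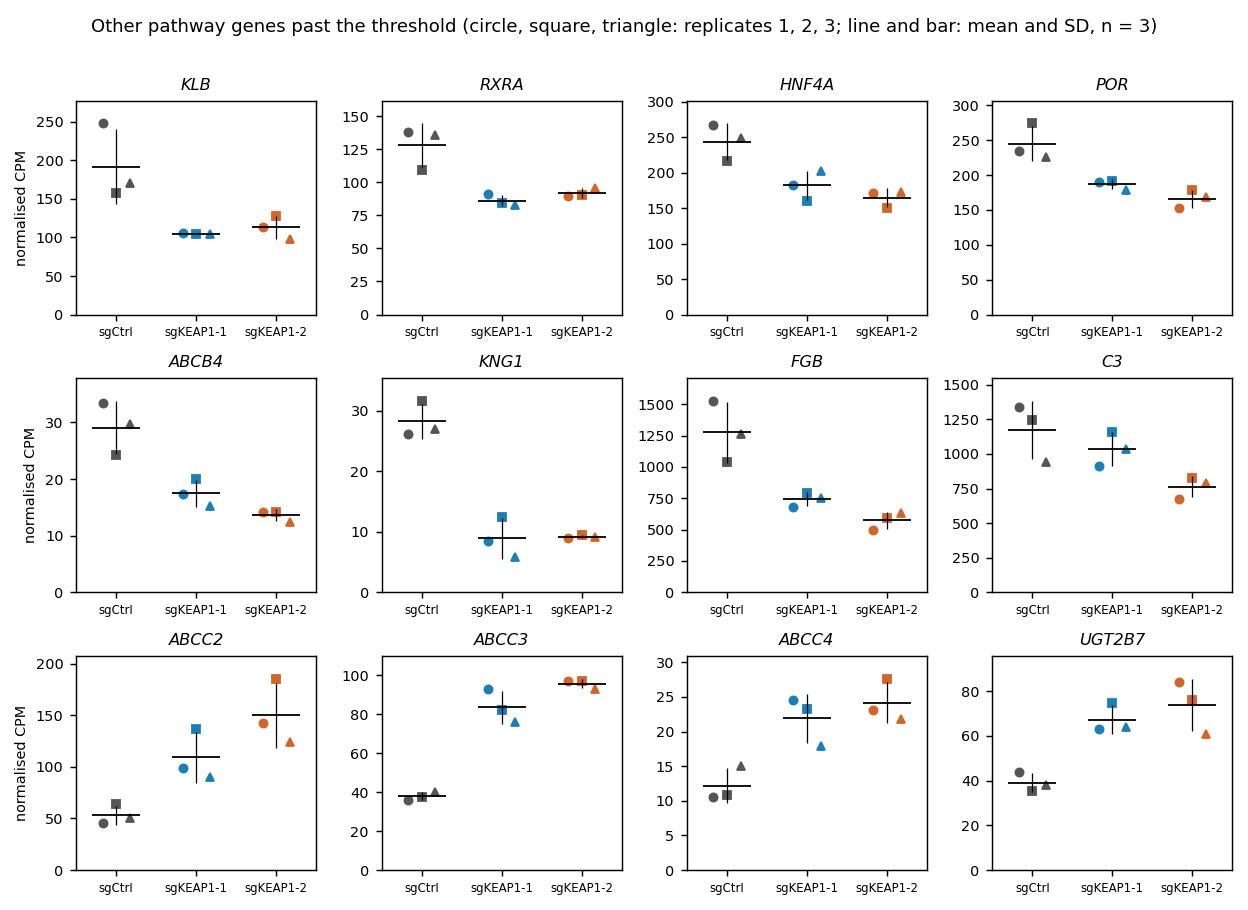
Normalised CPM (vertical axes, linear, from 0) of the 12 other pathway genes called with at least 1 KEAP1 guide, by group on the horizontal axis, with a symbol per library and the mean and SD of 3 libraries as line and bar. ABCC3 lies at 36 to 40.2 in sgCtrl and at 76 to 97.3 in the 6 KEAP1 KO libraries, whereas KLB lies at 158 to 248 and at 98.1 to 128.

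The transporters held genes that rose. ABCC3, a basolateral exporter of conjugated bile acids and glucuronides, was at 36, 37.8 and 40.2 normalised CPM in sgCtrl, at 92.8, 82.3 and 76 with sgKEAP1-1, and at 97.3, 97.1 and 93 with sgKEAP1-2. ABCC2, the canalicular exporter of conjugates, was at 45.6, 63.6 and 50.2 in sgCtrl, at 99.1, 137 and 90.5 with sgKEAP1-1, and at 142, 185 and 124 with sgKEAP1-2. ABCC4, another basolateral exporter, was at 10.6, 10.9 and 15.1 in sgCtrl, at 24.6, 23.3 and 17.9 with sgKEAP1-1, and at 23.1, 27.6 and 21.8 with sgKEAP1-2. In all 3 genes the 6 KEAP1 KO libraries lay over the controls. ABCC3 rose by 1.14 on the log2 scale (SE 0.13, edgeR adjusted p = 0.000116) with sgKEAP1-1 and by 1.33 (SE 0.13, edgeR adjusted p = 1.36e-05) with sgKEAP1-2. ABCC2 rose by 1.04 (SE 0.20, edgeR adjusted p = 0.00618) and by 1.51 (SE 0.20, edgeR adjusted p = 0.000169). ABCC4 rose by 0.85 (SE 0.22, edgeR adjusted p = 0.0445) and by 0.98 (SE 0.22, edgeR adjusted p = 0.0094), and its sgKEAP1-1 call was lost in limma-voom (adjusted p = 0.0586) and without any of sgCtrl replicates 1 and 2 or sgKEAP1-1 replicates 1 and 2 (edgeR adjusted p from 0.12 to 0.202), and it lay at 0.051 to 0.0704 in 3 further alternatives. Without sgCtrl replicate 1 the sgKEAP1-2 call of ABCC4 (edgeR adjusted p = 0.0554) and the sgKEAP1-1 call of ABCC2 (0.0504) were lost as well.

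ABCB4, the canalicular phospholipid floppase, fell with sgKEAP1-2, from 33.4, 24.2 and 29.8 normalised CPM in sgCtrl to 14.2, 14.1 and 12.4. With sgKEAP1-1 ABCB4 was at 17.3, 20 and 15.3, likewise under every control library. Its log2 fold change was -1.11 (SE 0.20, edgeR adjusted p = 0.00229) with sgKEAP1-2 and -0.73 (SE 0.20, edgeR adjusted p = 0.0501) with sgKEAP1-1, the latter being called by limma-voom (adjusted p = 0.0491), by DESeq2 (0.0396) and by edgeR with the replicate block (0.0209). SLC51B, a subunit of the basolateral organic solute transporter, had the highest value of the transporters with sgKEAP1-1, at 2.00 (SE 0.56, edgeR adjusted p = 0.0638), and 1.52 with sgKEAP1-2 (SE 0.58, edgeR adjusted p = 0.124). SLC51B was at 2.12, 2.38 and 1.95 normalised CPM in sgCtrl, at 7.31, 12.2 and 6.31 with sgKEAP1-1, and at 8, 9.27 and 1.45 with sgKEAP1-2, where only replicate 3 lay under the controls. In sgCtrl SLC51B had 8, 7 and 7 counts, and it passed the filter on low counts through its KEAP1 KO libraries alone. Its calls are thus given as a description and not as tests. SLC51B was called with sgKEAP1-1 under the replicate block (1.96, edgeR adjusted p = 0.00535), by DESeq2 (2.01, adjusted p = 0.0163) and in a fit of the 2 groups (edgeR adjusted p = 0.00686). The block also called SLC51B with sgKEAP1-2 (1.40, edgeR adjusted p = 0.0364). Without sgKEAP1-2 replicate 3 it was called with both guides (2.00 for each, edgeR adjusted p = 0.00278 and 0.00371), and without sgKEAP1-2 replicate 2 with sgKEAP1-1 (edgeR adjusted p = 0.0459). SLC51A, the other subunit, had the lowest values, at -1.32 (SE 0.46, edgeR adjusted p = 0.148) and -1.30 (SE 0.46, edgeR adjusted p = 0.0969), the latter being -2.03 (edgeR adjusted p = 0.0144) without sgKEAP1-2 replicate 3. It was also called with sgKEAP1-2 under the replicate block (-1.31, edgeR adjusted p = 0.0465). ABCB11 and the uptake carriers SLC10A1, SLCO1B1 and SLCO1B3 had no row. The median of the 9 tested transporters was -0.16 with sgKEAP1-1 and -0.17 with sgKEAP1-2.

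Of the conjugation and phase II enzymes, UGT2B7, which glucuronidates bile acids and steroids, rose with both guides. UGT2B7 was at 43.7, 35.4 and 37.9 normalised CPM in sgCtrl, at 63.3, 74.7 and 63.9 with sgKEAP1-1, and at 84, 76.3 and 61.1 with sgKEAP1-2. The increase was 0.78 on the log2 scale (SE 0.16, edgeR adjusted p = 0.00924) and 0.91 (SE 0.16, edgeR adjusted p = 0.00163), and the former was not called without sgCtrl replicate 3 (0.76, edgeR adjusted p = 0.0547). UGT2B4, a near relative of UGT2B7 that could share its reads, had the lowest values of the list, at -0.81 (SE 0.68, edgeR adjusted p = 0.68) and -1.75 (SE 0.77, edgeR adjusted p = 0.182), on 9.556 counts per library. SLC27A5, the bile acid CoA ligase that acts before BAAT, was at 12.3 to 15 normalised CPM in sgCtrl, at 15.3 to 15.9 with sgKEAP1-1 and at 13.9 to 20.8 with sgKEAP1-2, and was not called.

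Of 7 tested other genes that FXR is known to induce, KNG1 and FGB fell with sgKEAP1-1, beside 1.40% of all tested features called lower. KNG1, FGB and C3 fell with sgKEAP1-2, beside 4.85%. None was called higher with either guide, beside 2.80% and 5.96% of all tested features, so nothing is read from that absence. Under the replicate block FETUB, another gene of the list with few counts, was called lower with sgKEAP1-2 (-1.60, edgeR adjusted p = 0.0474). FETUB passed the filter on low counts through its sgCtrl libraries alone, so this call is no test. KNG1, which encodes kininogen, was at 26.2, 31.6 and 27 normalised CPM in sgCtrl, at 8.53, 12.4 and 5.79 with sgKEAP1-1, and at 8.93, 9.51 and 9.21 with sgKEAP1-2. The KNG1 log2 fold change was -1.65 (SE 0.25, edgeR adjusted p = 0.00109) and -1.61 (SE 0.25, edgeR adjusted p = 0.000739), with no overlap of either guide with sgCtrl. FGB, the fibrinogen beta chain, had log2 fold changes of -0.78 (SE 0.15, edgeR adjusted p = 0.00575) and -1.15 (SE 0.15, edgeR adjusted p = 0.000125). C3, a complement component, had -0.18 (SE 0.15, edgeR adjusted p = 0.665) and -0.62 (SE 0.15, edgeR adjusted p = 0.0137), and its sgKEAP1-2 call was lost without sgCtrl replicate 1 (edgeR adjusted p = 0.0847) or sgKEAP1-2 replicate 1 (0.0702). These 3 genes are also plasma proteins made by hepatocytes. Of the 9 hepatocyte markers, 4 were called lower with each guide, TTR was called higher, and APOB, TAT, SERPINA1 and CPS1 were not called. The part of the markers was not tested. SDC1, the highest of the list, was at 0.22 and 0.16 (SE 0.16, edgeR adjusted p = 0.591 and 0.607). The list median was -0.18 with sgKEAP1-1 and -0.62 with sgKEAP1-2.

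Markers of the other cell types in which these genes are known were measured alongside. Of 5 cholangiocyte and progenitor markers 4 had a row. KRT19 and SPP1 rose with both guides, beside 2.80% and 5.96% of all tested features called higher. SOX9 (-0.09 and -0.28 on the log2 scale) and EPCAM (0.05 and -0.24) were not called, the sgKEAP1-2 libraries of EPCAM lying under all its controls. The summed level of the 4 was 830.6 to 912.1 normalised CPM in sgCtrl, 1960 to 2297 with sgKEAP1-1 and 2047 to 2797 with sgKEAP1-2. SPP1 rose by 2.65 on the log2 scale (edgeR adjusted p = 0.000482) with sgKEAP1-1 and by 3.08 (edgeR adjusted p = 9.09e-05) with sgKEAP1-2, and KRT19 by 1.28 (edgeR adjusted p = 0.00193) and 1.48 (edgeR adjusted p = 0.000346). Of 5 enterocyte markers, only VIL1 had a row, and it was at 202.4 to 241.7 normalised CPM in sgCtrl, 157.5 to 187.1 with sgKEAP1-1 and 163.3 to 183.6 with sgKEAP1-2. The part of these marker changes in the member differences was not tested.

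Across the 9 libraries, the genes with the levels most like those of a member were named for CYP7A1, FGFR4 and NR1H4, with Pearson's r of log2 CPM as a description. These are the 3 members with the lowest adjusted p against sgCtrl, and the 3 groups themselves contribute to the values of r. For CYP7A1 the group difference is the one it was picked for, on 1 to 4 counts in each KEAP1 KO library. The genes most like CYP7A1 were TMEM86B (r = 0.952), CENPV (0.952) and FAM76A (0.938). TMEM86B was at 19.1 to 24.3 normalised CPM in sgCtrl, 7.55 to 11.3 with sgKEAP1-1 and 8 to 8.93 with sgKEAP1-2. For FGFR4 they were JUP (0.993), RASSF4 (0.986) and HNF4A (0.982). JUP was at 74.5 to 86.4 normalised CPM in sgCtrl, 56 to 67.3 with sgKEAP1-1 and 53.2 to 64.2 with sgKEAP1-2. For NR1H4 they were ELOVL5 (0.969), DOP1A (0.917) and WBP11 (0.917), and ELOVL5 was at 74.2 to 86.4 normalised CPM in sgCtrl and at 56.7 to 77.9 over the KEAP1 KO libraries.

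NRF2 binds DNA at antioxidant response elements, so the letters of their core, TGACNNNGC, were searched on both strands in RefSeq promoter windows of GRCh38.p14 that run from 250 bases before a gene's start to 50 bases after it. The core was present in 4687 of all 35116 windows (13.3%), in 1 of the 9 windows of the 7 members that have any (BAAT), and in 8 of the 64 windows of the 46 other pathway genes that have any, these 8 belonging to 7 genes. Among the pathway genes that were called, KLB, RXRA and ABCC4 held it, KLB and RXRA having fallen and ABCC4 having risen. The BAAT site and these sites are shown 5′ to 3′ along the gene, with the core in capitals, read as its reverse complement where it lies on the opposite strand (RXRA and ABCC4).
BAAT, chr9:101383587-101383615: aggtatgtggTGACCTAGCacttaagtta
KLB, chr4:39406873-39406901: agctaatcatTGACAGAGCtttacaatca
RXRA, chr9:134326310-134326338: gcggcgctgcGCCGAGTCAgcgcccgtcg
ABCC4, chr13:95301582-95301610: gtctcctcccGCCGCGTCAcccgtcggtc
KLB and RXRA lie on the plus strand and BAAT and ABCC4 on the minus strand, and the cores began at positions -47, -135, -41 and -149 from the start of their genes. A second RXRA window held another core at position -239. The inverted repeat that FXR binds, AGGTCA followed after 1 base by TGACCT, was found in 0 of the 35116 windows, so that no gene could be described by it. A match of letters is not a measured binding site, and its absence from a window says nothing about the factor.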

How the data were processed

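Reads came from 9 QuantSeq 3′ libraries of HepG2 cells. The authors trimmed, aligned and assigned them to genes and deposited whole-number counts per gene. The submitters' processing notes name FastQC 0.72, cutadapt 1.16, STAR 2.7.5b, featureCounts 1.6.3 and limma 3.40.6. The study's methods name hg19 and the notes hg38 as the build, so gene positions here only locate the genes. The annotation and the strand setting are not given in the sources used here, and overlapping genes could share counts. Every row exceeds 0.5 CPM in at least 3 libraries, so lower genes are not analysed here. Of 12798 rows, 1052 without an Entrez number (1.34% of counts) were left out of library sizes and tests. Symbols came from the RefSeq gene table for 11740 of 11746 numbers. No library looked like a copy of another (chi-square per degree of freedom 4.63 to 24.1 within groups).

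From these counts edgeR 4.0.16 (R 4.3.3; filterByExpr, TMM, robust quasi-likelihood fit of 3 groups) tested 11064 features, with Benjamini-Hochberg adjustment over all of them. SE is the log2 fold change over the root of the F statistic. The members and lists were chosen with earlier results of these data known. Named are the members, the pathway genes past the threshold or at the ends of their list against sgCtrl, the cell type markers with a row, and the 3 genes most like each of 3 members. AKR1D1, FRS2, SLC27A5, INSIG2, CYP8B1, GRB2, MAFG, SULT2A1, SCP2 and FETUB are not named by this rule. They were picked once their values were known. Alternatives were limma-voom (3.58.1, the study's kind of test), DESeq2 (1.42.0), other scalings and filters, a replicate block, fits of 2 groups and leaving out each library. Same-numbered libraries deviated together in 3 of 3 pairs of sgCtrl with sgKEAP1-1 (correlations 0.16 to 0.38), but in 2 of 3 pairs of sgKEAP1-2 with sgCtrl (-0.01 to 0.34) and with sgKEAP1-1 (0.03 to 0.52), so the pairing is less sure for sgKEAP1-2. Blocked values stand beside the calls of members and other pathway genes that they change. Intervals of single ratios cover counting error only. Members' promoter windows came from RefSeq, with entries for 7 of the 10 members. CYP7A1, NR0B2 and FGF19 are the others.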

Additional observations from a re-analysis of the deposited data

How the results depend on the processing

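The counts of genes called were the least stable values. All features called numbered 465 with sgKEAP1-1, 1196 with sgKEAP1-2 and 2 between the guides. With the replicate number as a block they were 977, 1956 and 26, members called were 2 with sgKEAP1-1, and other pathway genes called were 13 and 19. The pairing by number held in all pairs of sgCtrl with sgKEAP1-1 and not in all pairs of the other contrasts. Over all 9 same-numbered pairs the correlation averaged 0.2291, against -0.1154 for other pairs, and 7 of 9 libraries correlated best with their own number. With sgKEAP1-2 the block added calls of AKR1D1 (-0.83, edgeR adjusted p = 0.00916), SLC51A (-1.31, 0.0465), SLC51B (1.40, 0.0364), SULT2A1 (-0.76, 0.00158), FETUB, an FXR target gene (-1.60, 0.0474), SCP2, a side chain enzyme (-0.45, 0.0427), and MAFG (0.47, 0.0138), and it ended no call of a member or other pathway gene. SLC51B and FETUB passed the filter on low counts only through the groups where they are higher, so their calls are no test. In a fit of 2 groups RXRA was not called with sgKEAP1-2 (edgeR adjusted p = 0.0537). Leaving out 1 library gave 278 to 688 features with sgKEAP1-1, 764 to 1291 with sgKEAP1-2 and 0 to 2 between the guides, 1 member with sgKEAP1-1 and 1 to 2 with sgKEAP1-2, and 5 to 10 and 8 to 16 other pathway genes. With at least 10 counts in every library, members called were 0 and 1, because CYP7A1 leaves the test, and features called between the guides were 0. That count was 0 in limma-voom and in a fit of those 2 groups, and 19 in DESeq2. Leaving out the 3 libraries numbered 2 together, an alternative chosen after seeing the data, left 1 member called with sgKEAP1-2, and turned HSD3B7 to 0.04, CYP27A1 to -0.03 with sgKEAP1-2, and NR0B2 to -0.15, ACOX2 to -0.22 and INSIG2 to -0.03 with sgKEAP1-1, and ACOT8 to 0.11 with sgKEAP1-2. FGFR4 was then at -0.49 (edgeR adjusted p = 0.0772), UGT2B7 at 0.63 with sgKEAP1-1 (0.102), and ABCC4 at 0.73 (0.213) and 0.82 (0.0855). Leaving out single libraries gave -0.20 to 0.10 for HSD3B7 and -0.08 to 0.09 for CYP27A1 with sgKEAP1-2, and -0.13 to 0.29 for NR0B2 with sgKEAP1-1. Genes near 0 turned likewise: with sgKEAP1-1 FDXR (-0.02 to 0.31), ACOX2 (-0.17 to 0.27), ACOT8 (-0.10 to 0.08), PTPN11 (-0.05 to 0.06) and INSIG2 (-0.46 to 0.50), and with sgKEAP1-2 FDX1 (-0.02 to 0.16), ACOT8 (-0.16 to 0.19) and GRB2 (-0.13 to 0.02). Between the guides it gave -0.57 to 0.66 for CYP7A1, -0.11 to 0.19 for NR1H4 and -0.03 to 0.39 for NR0B2. The cause was not tested. Of 1522 values of single genes under alternatives, 1429 kept direction and side of the threshold. A scaling turned only PTPN11 with sgKEAP1-1 (-0.00 to 0.01 with no scaling), which was 0.00 with the block and with at least 10 counts. Depth limits AMACR, BAAT and CYP7A1, which have few counts.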

Other observations

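Some pathway genes were highest in the same replicate number of every group. SULT2A1, which sulfates bile acids, was at 151, 291 and 166 normalised CPM in sgCtrl libraries 1 to 3, at 118, 235 and 96.5 with sgKEAP1-1, and at 122, 184 and 65.7 with sgKEAP1-2. INSIG2, a brake on cholesterol synthesis that FXR is known to induce, was at 61.7, 117 and 51.6, at 48, 129 and 63.4, and at 50.5, 87.3 and 25.9 in the same order. Replicate 2 was the highest library of its group for both genes in all 3 groups, and for MAFG as well. At the same number, SULT2A1 was under its sgCtrl library in all 6 KEAP1 KO libraries, whereas INSIG2 was so in 4 of 6. Without the replicate block neither was called with either guide. With it, SULT2A1 was at -0.49 with sgKEAP1-1 (SE 0.15, edgeR adjusted p = 0.0503) and at -0.76 with sgKEAP1-2 (SE 0.15, edgeR adjusted p = 0.00158), and INSIG2 was at 0.04 (SE 0.18, edgeR adjusted p = 0.938) and at -0.54 (SE 0.19, edgeR adjusted p = 0.0598). The pairing by number is less sure for sgKEAP1-2. SULT2A1, INSIG2 and MAFG were singled out after their values were seen. Same-numbered libraries share a prefix in their descriptions, whose meaning the labels do not state.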
